A study of Mus musculus with 2 samples.

Results

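Expression of 10 basement membrane genes was compared in mouse CGR8 embryonic stem cells given an siRNA against Set1a or a negative control siRNA. The genes were taken by name (Col4a1, Col4a2, Lama1, Lama5, Lamb1, Lamc1, Sparc, Nid1, Nid2 and Hspg2), as 10 of 22421 genes listed, and each was represented by the 1 transcript that the deposited tables hold for it. They were selected on earlier results from both libraries, that is, with their RPKM values and folds between the libraries known, so everything below is a description and no test is attached. The Set1a siRNA group and the control siRNA group each consisted of 1 RNA-seq library. Both came from the same line, grown without feeders on 0.2% gelatin in medium with 15% serum and leukaemia inhibitory factor, and both received 2 rounds of siRNA within 72 hours. The Set1a gene (Setd1a in the annotation) codes for an enzyme that methylates histone H3 at lysine 4.

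A basement membrane is a thin sheet of extracellular matrix under epithelia. It is built from a laminin network that attaches to cells and a covalently crosslinked collagen IV network, which nidogens and perlecan connect. In the early mouse embryo laminin is laid down before implantation, and endoderm of the yolk sac later deposits a thick membrane rich in these proteins.

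The deposited values are RPKM, read numbers scaled by transcript length and library depth, so levels of different genes can be set side by side. The step of 1 read in low values gave depths of about 6400000 reads for the Set1a siRNA library and 6650000 reads for the control siRNA library. Setd1a itself was at 11.97 RPKM in the Set1a siRNA library and 14.2 RPKM in the control siRNA library, a ratio of 0.846 (0.745 to 0.959). With 1 RPKM added to each value, its log2 ratio was -0.22. The lower quartile over all genes that averaged 1 RPKM or more was -0.14, so a fall of this size was not rare. With 1 library per group, no difference has a replicate check. The range given in parentheses after a ratio is its 95% counting interval, an exact Clopper-Pearson interval from recovered reads that covers counting error only. In RNA from a whole culture, fewer cells of a type and less RNA per cell cannot be told apart.

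The collagen IV genes were the members that differed most between the libraries. Col4a1 and Col4a2 encode the alpha1 and alpha2 chains, which assemble into the collagen IV trimer of most basement membranes with 2 alpha1 chains to 1 alpha2 chain. Col4a1 was at 9.98 RPKM (423 reads) in the Set1a siRNA library and 5.43 RPKM (239 reads) in the control siRNA library. This made a ratio of 1.84 (1.57 to 2.16). Col4a2 was at 4.05 RPKM (167 reads) in the Set1a siRNA library and 2.10 RPKM (90 reads) in the control siRNA library. Its ratio was 1.92 (1.48 to 2.52). Both genes were higher in the Set1a siRNA library, and neither interval overlapped that of any of the 8 other members.

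The balance of these collagen chains differed between the libraries by less than counting error. The level of Col4a1 over that of Col4a2 was 2.47 (2.06 to 2.97) in the Set1a siRNA library and 2.58 (2.02 to 3.34) in the control siRNA library. On the scale of log2((Set1a siRNA RPKM + 1)/(control siRNA RPKM + 1)), the fold was 0.77 for Col4a1 and 0.70 for Col4a2. Genes entered comparisons when their RPKM averaged 1 or more over both libraries, as all 10 members did in each library. Of the 11802 such genes, 154 had a higher fold than Col4a1 and 198 had a higher fold than Col4a2. These were the 2 members at least 1.5-fold higher on that scale, where 2.77% of those 11802 genes were, and 0 members were at least 1.5-fold lower, where 1.75% were. No member reached a factor of 2, which 0.771% of these genes passed upwards and 0.407% downwards. Adding 5 RPKM in place of 1 took both genes below 1.5-fold, at log2 folds of 0.52 and 0.35. Removing a trend in GC content and length took Col4a2 just below it, at 0.58.

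Col4a1 and Col4a2 lie head to head and are known to share a promoter region that reads in both directions. The complexes that contain SET1A are known to bind CpG-rich DNA through their CFP1 subunit. Whether such binding has a part in the values of any member was not tested. The extent of the shared promoter region was not mapped here. The sequences below are the Col4a1 window, the bases where it overlaps the Col4a2 window and, for contrast, the window at the start of Nid1, the member with the lowest ratio. They run 5′ to 3′ and come from RefSeq annotation on GRCm38.p6, a later build than the mm9 of the submitters' processing notes. Each window covers 250 bases before to 50 bases after an annotated gene start. Capitals mark CpG dinucleotides in the Col4a1 window (chr8:11312777-11313076, minus strand) and the Nid1 window (chr13:13437352-13437651, plus strand). In the 78 bases that the Col4a1 and Col4a2 windows share (chr8:11312777-11312854, given on the plus strand, which is that of Col4a2), capitals mark the GC box GGGCGG.
Col4a1 window: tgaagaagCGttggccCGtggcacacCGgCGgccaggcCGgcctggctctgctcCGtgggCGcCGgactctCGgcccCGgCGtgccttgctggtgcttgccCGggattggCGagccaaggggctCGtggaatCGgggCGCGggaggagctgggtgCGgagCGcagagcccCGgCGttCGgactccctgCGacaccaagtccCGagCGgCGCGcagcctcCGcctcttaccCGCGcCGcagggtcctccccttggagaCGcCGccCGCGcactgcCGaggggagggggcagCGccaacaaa
Col4a1 and Col4a2 shared: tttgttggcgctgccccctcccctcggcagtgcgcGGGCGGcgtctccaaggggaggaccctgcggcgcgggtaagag
Nid1 window: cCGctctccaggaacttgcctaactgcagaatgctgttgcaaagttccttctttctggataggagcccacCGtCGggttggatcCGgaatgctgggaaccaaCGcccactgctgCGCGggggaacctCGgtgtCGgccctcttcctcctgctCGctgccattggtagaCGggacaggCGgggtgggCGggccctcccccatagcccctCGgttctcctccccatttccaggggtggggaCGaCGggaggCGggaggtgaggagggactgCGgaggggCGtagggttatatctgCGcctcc

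The Col4a1 window held 37 CpG dinucleotides and the Col4a2 window 33. Of 32851 windows in the table, 5.58% held at least as many as Col4a1 and 8.56% at least as many as Col4a2, and the median was 7. Of the 7 members with a window, Hspg2 followed with 27, Lama5 with 24, Nid1 with 20, Lamb1 with 18 and Sparc with 4. The Nid1 window, chosen by the ratio of its gene, was thus also above the median, and 26.5% of windows held at least as many CpG. The Sparc window may not be the start used in these cells, since it follows the annotated gene start. The shared 78 bases held 9 CpG and 1 GC box. Across whole windows and both strands, GGGCGG matched 1 time for Col4a1, 3 times for Col4a2 and 1 time for Nid1, and 35.7% of all windows held a match. CCAAT matched 1 time in each of these 3 windows, against 37.4% of windows with a match, and TATAAA matched in none of the 7, against 13.6%. Whether CpG number moved with the folds was not tested.

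**Figure D1:**
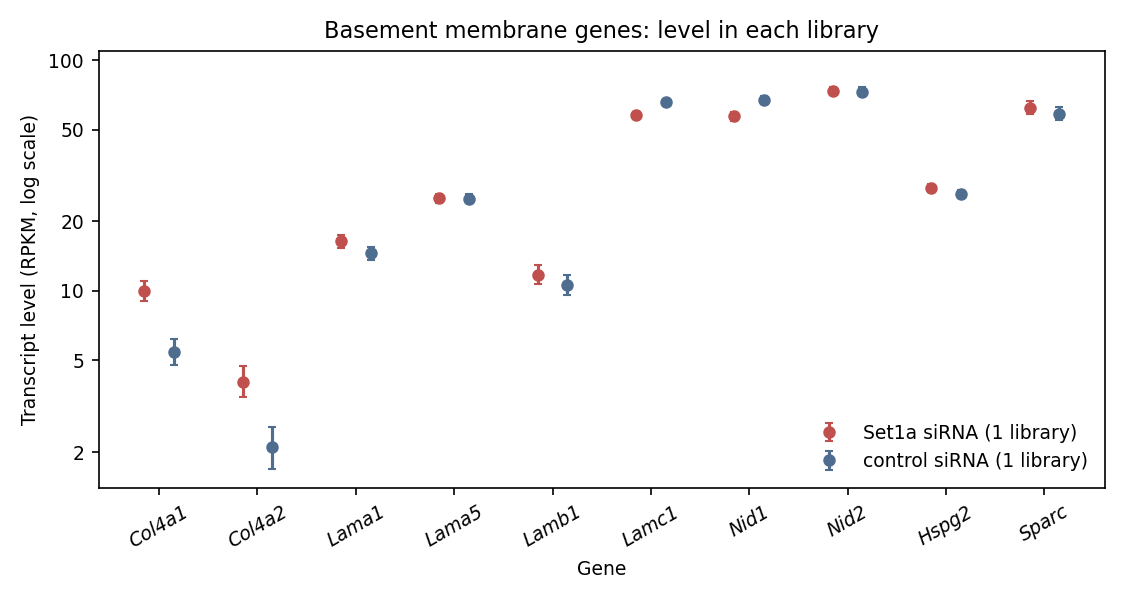
Transcript level of each basement membrane gene in RPKM (log axis), with the Set1a siRNA library left of the control siRNA library and bars for the 95% Poisson counting interval. Col4a1 and Col4a2, at 9.98 and 4.05 RPKM in the Set1a siRNA library, are the lowest members in both libraries and the members whose points lie farthest apart.

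The laminin genes differed much less. Laminins are trimers of 1 alpha, 1 beta and 1 gamma chain, and the alpha chain carries the main sites for cell receptors. Lama1, for the alpha1 chain of the early embryonic laminin, was at 16.4 RPKM (1000 reads) in the Set1a siRNA library and 14.5 RPKM (921 reads) in the control siRNA library. Its ratio was 1.13 (1.03 to 1.24), an interval just above 1. Lama5, for the alpha5 chain, which is widespread in epithelia, was at 25.2 RPKM (1838 reads) in the Set1a siRNA library and 25.1 RPKM (1900 reads) in the control siRNA library. The ratio was 1.01 (0.942 to 1.07), so counting error alone covers both directions.

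Lamb1, for the beta1 chain, was at 11.8 RPKM (436 reads) in the Set1a siRNA library and 10.6 RPKM (408 reads) in the control siRNA library. Its ratio was 1.11 (0.968 to 1.27), and the interval included 1. Lamc1, for the gamma1 chain shared by most laminins, was at 57.7 RPKM (2817 reads) in the Set1a siRNA library and 65.9 RPKM (3341 reads) in the control siRNA library. The ratio was 0.876 (0.833 to 0.921), below 1 beyond counting error. Lama1 and Lamc1, chains of the same embryonic laminin, thus lay on opposite sides of 1. Summed over the 4 laminin members, 6091 reads in the Set1a siRNA library stood against 6570 in the control siRNA library, a ratio by depth of 0.963 (0.930 to 0.998). Lamc1 weighs most in this sum, with 2817 and 3341 of those reads. The other 3 laminin members had ratios above 1, and the median log2 fold of the 4 was 0.07.

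The nidogens and perlecan connect the laminin and collagen IV networks. Nid1, for nidogen-1, was at 57.1 RPKM (2226 reads) in the Set1a siRNA library and 67.6 RPKM (2738 reads) in the control siRNA library. With a ratio of 0.845 (0.798 to 0.894) it was the lowest of the members. Nid2, for nidogen-2, was at 73.5 RPKM (2293 reads) in the Set1a siRNA library and 73.2 RPKM (2375 reads) in the control siRNA library, a ratio of 1.003 (0.947 to 1.06). The level of Nid2 over that of Nid1 was therefore 1.29 (1.21 to 1.37) in the Set1a siRNA library and 1.08 (1.03 to 1.15) in the control siRNA library. Hspg2, for the heparan sulfate proteoglycan perlecan, was at 28.0 RPKM (2543 reads) in the Set1a siRNA library and 26.3 RPKM (2478 reads) in the control siRNA library. Its ratio was 1.07 (1.01 to 1.13), and 4109 of the 11802 genes had a higher fold.

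Sparc encodes a secreted glycoprotein that binds collagen IV and calcium and is abundant in parietal endoderm. It was at 62.4 RPKM (919 reads) in the Set1a siRNA library and 58.6 RPKM (897 reads) in the control siRNA library. The ratio was 1.06 (0.970 to 1.17), and the interval included 1.

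**Figure D2:**
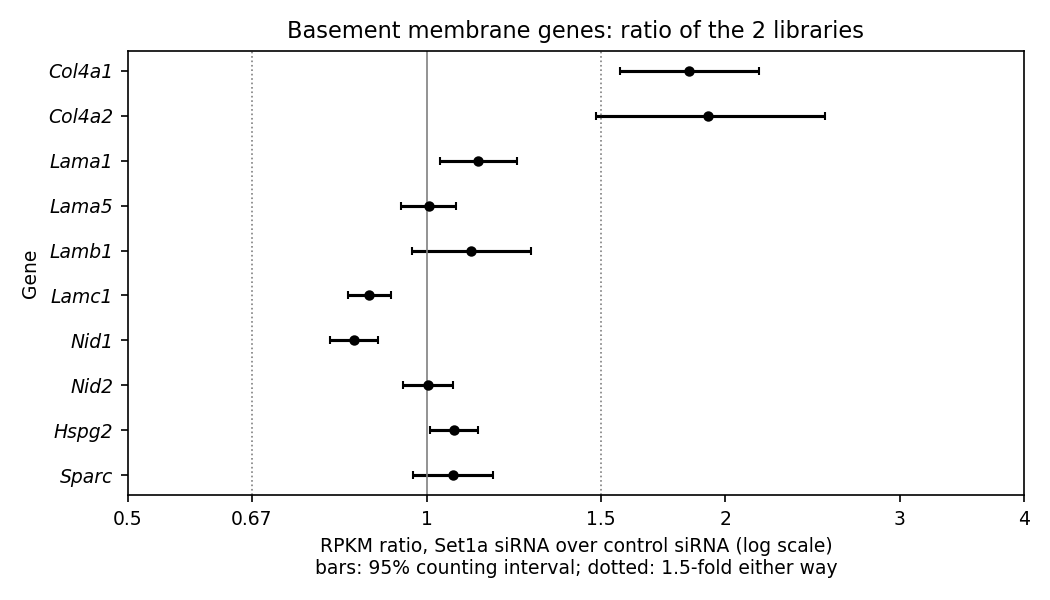
RPKM ratio of the Set1a siRNA library over the control siRNA library for each member (log axis), with 95% counting intervals and dotted lines at 1.5-fold either way. Col4a1 (1.84) and Col4a2 (1.92) lie to the right of every other interval, and Lamc1 (0.876) and Nid1 (0.845) lie below 1.

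Over all 10 members, 4 had a counting interval above 1 (Col4a1, Col4a2, Lama1 and Hspg2) and 2 had one below 1 (Lamc1 and Nid1). After removal of a GC and length trend, 3 had one above 1, and the log2 fold of Hspg2 was 0.01. Among all genes compared that have a known length, 12.2% had an interval above 1 and 11.3% one below 1. Among the 6741 genes with at least 257 reads, the number of Col4a2, the member with the fewest, the shares were 14.4% and 15.3%, and 1.01% passed 1.5-fold upwards and 0.445% downwards. Because the members were chosen with these values known, nothing is read from the counts. The median log2 fold of the members was 0.09, beside 0.0063 for all 11802 genes, and 0.05 for the 8 members other than Col4a1 and Col4a2. Summed over the 10 members, 14662 reads in the Set1a siRNA library stood against 15387 in the control siRNA library, a ratio by depth of 0.990 (0.968 to 1.01). This sum weighs Lamc1, Hspg2, Nid1 and Nid2 most, and the collagen IV genes make 590 of the reads in the Set1a siRNA library and 329 in the control siRNA library.

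**Figure D3:**
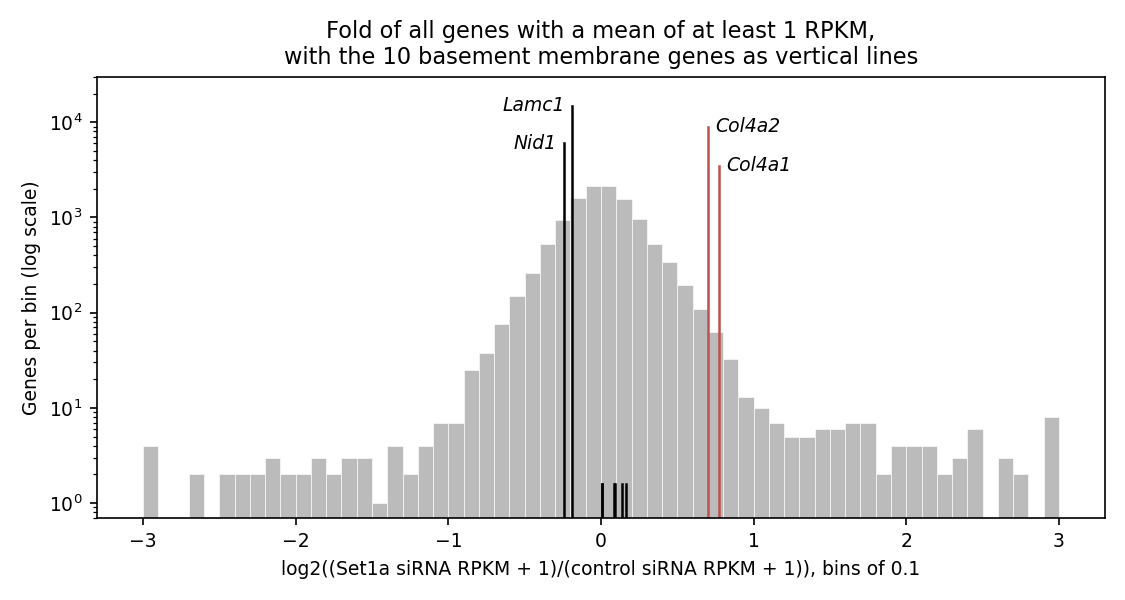
Number of genes per bin of log2 fold (log axis) for the 11802 genes compared, with vertical lines at the 10 members, the outermost bins also holding genes beyond the axis. Col4a1 (0.77) and Col4a2 (0.70) lie in the right flank, Nid1 (-0.24) and Lamc1 (-0.19) left of the centre, and the 6 others, drawn as short lines, between 0.0049 and 0.16.

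The members span a wide range of levels, and their order differed in part between the libraries. In the Set1a siRNA library the order was Nid2, Sparc, Lamc1, Nid1, Hspg2, Lama5, Lama1, Lamb1, Col4a1 and Col4a2. Counting intervals of the levels overlapped there between Sparc and Lamc1, between Lamc1 and Nid1, and between Lamb1 and Col4a1. In the control siRNA library Nid1 and Lamc1 stood above Sparc, and neighbours overlapped between Nid1 and Lamc1 and between Hspg2 and Lama5. Col4a1 thus lay below Lamb1 in both libraries, with overlapping intervals in the Set1a siRNA library and separate ones in the control siRNA library. Overlapping intervals do not show that levels are equal. Nid2 exceeded 93.8% of the 11802 genes in the Set1a siRNA library and 93.6% in the control siRNA library. Col4a2 exceeded 26.7% in the Set1a siRNA library and 13.0% in the control siRNA library.

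The 10 other chains of the same families that were analysed were low, apart from Lamb2, which lay above Col4a2 in both libraries. Lamb2, for the beta2 chain, was at 5.95 RPKM in the Set1a siRNA library and 5.58 RPKM in the control siRNA library. Its counting interval (0.879 to 1.30) included 1, and it was the 1 chain of these 10 that averaged 1 RPKM or more. Lama3, the next, was at 0.678 RPKM in the Set1a siRNA library and 0.697 RPKM in the control siRNA library. Reads in the Set1a siRNA library and in the control siRNA library were 15 and 11 for Lamb3, 12 and 8 for Lama4, 7 and 4 for Col4a5, 2 and 3 for Lama2 and 4 and 0 for Col4a6. Col4a3 and Col4a4 had 0 reads in the Set1a siRNA library and 1 each in the control siRNA library, and Lamc3 was listed at 0 in both.

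By chain class, the alpha1 and alpha2 chains made nearly all collagen IV transcripts. Col4a1 made 69.8% of the summed RPKM of collagen IV genes in the Set1a siRNA library and 70.8% in the control siRNA library, and Col4a2 made 28.3% in the Set1a siRNA library and 27.5% in the control siRNA library. Lama5 and Lama1 together carried the laminin alpha chains, with 59.2% and 38.5% in the Set1a siRNA library and 61.8% and 35.8% in the control siRNA library. Lamb1 made 64.3% of the beta chains in the Set1a siRNA library and 63.9% in the control siRNA library. Alpha chain transcripts, at 42.6 RPKM in the Set1a siRNA library and 40.6 RPKM in the control siRNA library, exceeded beta chain transcripts, at 18.3 RPKM in the Set1a siRNA library and 16.6 RPKM in the control siRNA library.

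**Figure D4:**
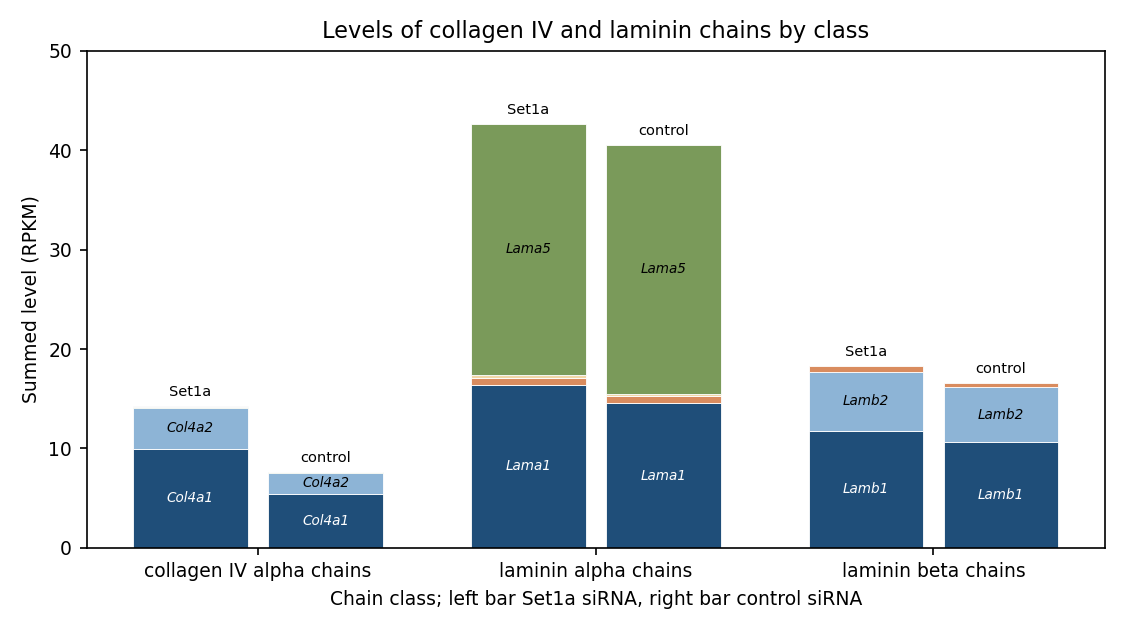
Summed RPKM of collagen IV, laminin alpha and laminin beta chain genes by class, as stacked bars from 0 with the Set1a siRNA library left and the control siRNA library right. Collagen IV is the class whose bars differ most in proportion, at 14.3 RPKM in the Set1a siRNA library and 7.66 RPKM in the control siRNA library.

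Genes for the processing and secretion of collagen included some with ratios like those of Col4a1 and Col4a2. The enzymes named in this paragraph act in the endoplasmic reticulum, where collagen chains are hydroxylated, glycosylated and folded. The list also holds genes whose products act elsewhere, such as Lox and Sec23a. P4ha2, for a catalytic subunit of prolyl 4-hydroxylase, was at 4.64 RPKM (66 reads) in the Set1a siRNA library and 1.65 RPKM (24 reads) in the control siRNA library, a ratio of 2.82 (1.77 to 4.77). Plod2, for a lysyl hydroxylase, was at 29.6 RPKM in the Set1a siRNA library and 15.7 RPKM in the control siRNA library, a ratio of 1.88 (1.66 to 2.14). P4ha1, for the other main catalytic subunit of prolyl 4-hydroxylase, had a ratio of 1.498 (1.25 to 1.80), and P3h1, for a prolyl 3-hydroxylase, had 1.32 (1.08 to 1.62).

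All 4 of these genes were higher in the Set1a siRNA library. They were named for large folds with an interval that excludes 1, so that their intervals exclude 1 follows from the choice. Other genes of the same enzymes, and the chaperone gene, were closer to 1. P4hb, for protein disulfide isomerase, which is also the second subunit of prolyl 4-hydroxylase, had a ratio of 1.11 (1.04 to 1.18). Serpinh1, for the collagen chaperone HSP47, had 1.07 (0.878 to 1.30), and the other lysyl hydroxylase genes Plod1, with 0.874 (0.736 to 1.04), and Plod3, with 1.09 (0.906 to 1.31), had intervals that included 1. Of the 23 genes on this list that were measured, that is, averaged 1 RPKM or more over both libraries, 2 passed 1.5-fold upwards and 0 downwards on the RPKM + 1 scale (2.77% and 1.75% of all genes compared). A counting interval of the plain RPKM ratio lay above 1 for 6 and below 1 for 0 (12.2% and 11.3% of all genes), and the median log2 fold was 0.15. The RPKM + 1 scale gives low genes smaller folds than their plain ratios, here and for the lists that follow. P4hb, Serpinh1, Plod1 and Plod3 are not among the genes named by rule, and were picked with their values in view.

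**Figure D5:**
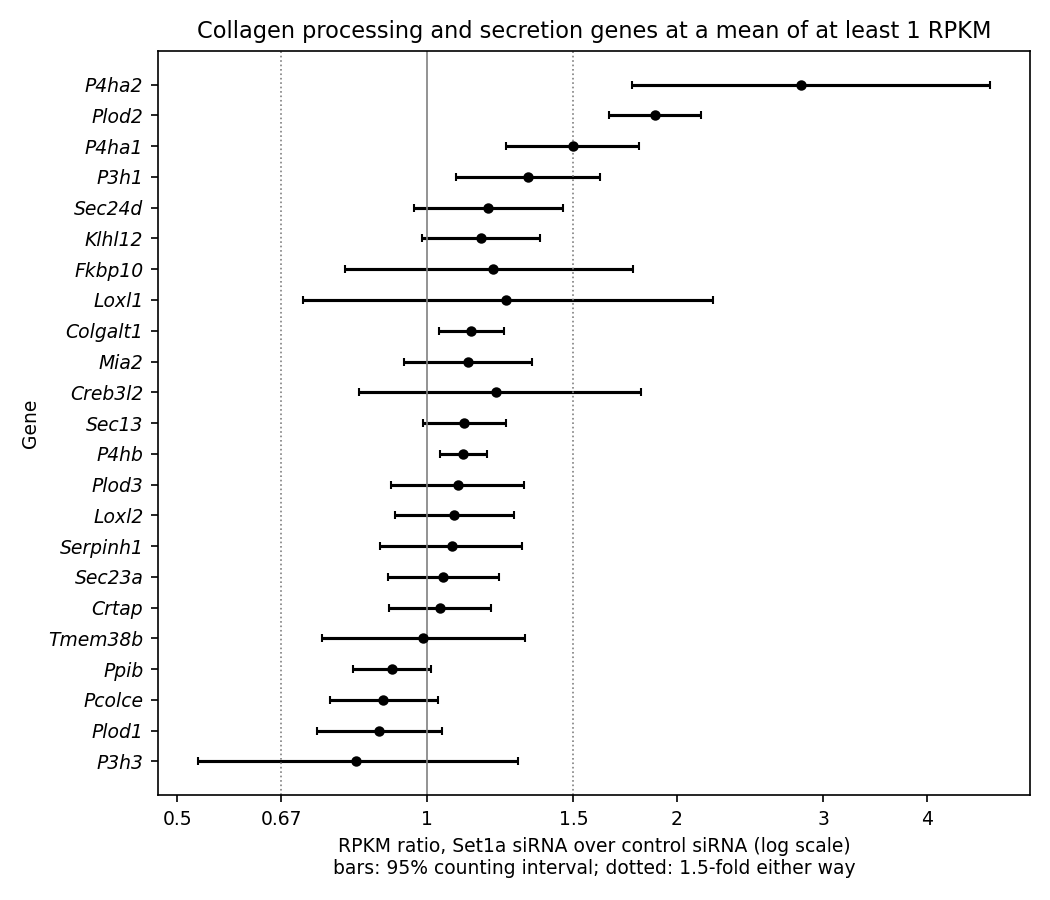
RPKM ratio of the Set1a siRNA library over the control siRNA library (log axis) for the 23 measured collagen processing and secretion genes, ordered by log2 fold, with 95% counting intervals and dotted lines at 1.5-fold either way. P4ha2 (2.82) and Plod2 (1.88) lead the list, P4ha1 lies near the dotted line at 1.498, and most of the others have intervals that include 1.

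Receptors for the basement membrane were mixed. Of 28 measured genes, 1 passed 1.5-fold upwards and 0 downwards on the RPKM + 1 scale, against 2.77% and 1.75% of all genes compared. By counting interval of the plain ratio, 8 lay above 1 and 2 below it, against 12.2% and 11.3% of all genes, and the median log2 fold was 0.10. Itga3, for the alpha3 integrin chain that binds laminins with alpha5, was at 8.54 RPKM in the Set1a siRNA library and 5.29 RPKM in the control siRNA library, a ratio of 1.61 (1.33 to 1.97). Itgb3, for the beta3 integrin chain, had a ratio of 1.68 (1.197 to 2.40), Ddr1, for a collagen receptor tyrosine kinase, had 1.55 (1.12 to 2.16), and Sdc2, for syndecan-2, had 1.62 (1.02 to 2.61). These are plain RPKM ratios, and 1 of the 4 genes passed 1.5-fold once 1 RPKM was added.

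Other basement membrane components gave 1 of 8 measured genes past 1.5-fold upwards and 0 downwards on the RPKM + 1 scale, where 2.77% and 1.75% of all genes were. They gave 2 with an interval of the plain ratio above 1 and 2 below it, where 12.2% and 11.3% of all genes were, and a median log2 fold of 0.10. Mmrn2, for the endothelial glycoprotein multimerin-2, was at 11.4 RPKM in the Set1a siRNA library and 6.76 RPKM in the control siRNA library, a ratio of 1.68 (1.39 to 2.03). Fbln1, for fibulin-1, had a ratio of 1.25 (1.05 to 1.5), Ntn1, for netrin-1, had 0.890 (0.805 to 0.984), and Smoc1, for a relative of Sparc, had 0.544 (0.344 to 0.849), from 32 reads in the Set1a siRNA library and 61 in the control siRNA library. With 1 RPKM added, the log2 fold of Smoc1 was -0.58, just short of 1.5-fold lower.

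Of 13 measured matrix proteases and inhibitors, 1 passed 1.5-fold upwards and 0 downwards on the RPKM + 1 scale (2.77% and 1.75% of all genes). An interval of the plain ratio above 1 was found for 2 and one below 1 for 2, which is near the 12.2% and 11.3% of all genes, and the median log2 fold was 0.10. Serpine2, for a serine protease inhibitor, was at 9.17 RPKM in the Set1a siRNA library and 3.07 RPKM in the control siRNA library, a ratio of 2.99 (2.12 to 4.31). Mmp2, for a gelatinase that cleaves collagen IV, had a plain ratio of 1.53 (1.19 to 1.97) and a log2 fold of 0.53 with 1 RPKM added, which is below 1.5-fold. Bace1, for a membrane aspartyl protease, had 0.811 (0.667 to 0.983) and Ctsl, for cathepsin L, had 0.904 (0.824 to 0.994).

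Of 6 measured genes of the interstitial matrix, 1 was at least 1.5-fold higher and 0 were at least 1.5-fold lower on the RPKM + 1 scale (2.77% and 1.75% of all genes). An interval of the plain ratio above 1 was found for 1 and one below 1 for 3 (12.2% and 11.3% of all genes). The median log2 fold was 0.04, and it turned to -0.25 with a floor of 5 RPKM. Fn1, for fibronectin, was at 109 RPKM in the Set1a siRNA library and 133 RPKM in the control siRNA library, a ratio of 0.821 (0.793 to 0.850). Col5a1, for a chain of the fibrillar collagen V, went the other way, with a ratio of 1.82 (1.399 to 2.39). Tgfbi, for a matrix protein induced by TGF-beta, had 0.720 (0.545 to 0.945) and Vcan, for versican, had 0.837 (0.727 to 0.963).

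Col4a1, Col4a2 and Sparc also mark primitive and parietal endoderm, so markers of those cells are given beside them. Of 28 such markers, 6 averaged 1 RPKM or more, and the sum of all 28 was 28.1 RPKM in the Set1a siRNA library and 27.3 RPKM in the control siRNA library. Of these 6 (Krt8, Krt18, Krt19, Fst, Lrp2 and Prdm1), 0 were at least 1.5-fold higher or lower, beside 2.77% and 1.75% of all genes. An interval above 1 was found for 0 and one below it for 2, beside 12.2% and 11.3% of all genes. The 2 were Prdm1, with a ratio of 0.705 (0.568 to 0.879), and Lrp2, with 0.835 (0.708 to 0.9825). Among defining markers, reads in the Set1a siRNA library and in the control siRNA library were 19 and 22 for Gata4, 16 and 18 for Sox7, 1 and 2 for Sox17, 7 and 1 for Gata6, 11 and 6 for Pdgfra, 6 and 4 for Dab2 and 1 and 0 for Foxa2. Thbd had 10 reads in each library, and Plat had 4 in the Set1a siRNA library and 3 in the control siRNA library. Ttr, Afp, Apoa1, Sox18 and Tfec were listed at 0 in both. The 9 markers with reads from Gata4 to Plat were all below 1 RPKM in both libraries.

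Of 12 fibroblast markers, 2 averaged 1 RPKM or more, Thy1 and Twist1, with a median log2 fold of 0.59. With 1 RPKM added, 1 passed 1.5-fold upwards and 0 downwards (2.77% and 1.75% of all genes). Of these 2 genes, a plain-ratio interval lay above 1 for 1 and below 1 for 0 (12.2% and 11.3% of all genes). Thy1 had a ratio of 1.59 (0.969 to 2.67), which includes 1, and Twist1 had 1.96 (1.08 to 3.69). The sum of all 12 was 8.95 RPKM in the Set1a siRNA library and 4.74 RPKM in the control siRNA library. Thy1 was its largest part, at 3.86 RPKM in the Set1a siRNA library and 2.425 RPKM in the control siRNA library. Col1a2, Dcn, Postn and Twist2 were listed at 0 in both libraries, and Col3a1 had 0 reads in the Set1a siRNA library and 1 in the control siRNA library. Reads in the Set1a siRNA library and in the control siRNA library were 14 and 3 for Col1a1, 39 and 17 for Pdgfrb, 10 and 2 for Prrx1 and 34 and 18 for Twist1. Pdgfrb, Prrx1 and Twist1 were picked with their values in view. Though they averaged less than 1 RPKM, Col1a1 (1.35 to 26.3), Pdgfrb (1.32 to 4.49) and Prrx1 (1.11 to 48.8) also had intervals above 1. Those of the other markers with reads, apart from Twist1, included 1. The sum of all 12 was higher in the same library as Col4a1 and Col4a2. With 1 library per group that is a single difference, and any relation between them was not tested. The 16 pluripotency markers, which define the labelled cell type, were all above 1 RPKM on average, with a median log2 fold of 0.0042. Of them, 0 passed 1.5-fold upwards or downwards on the RPKM + 1 scale (2.77% and 1.75% of all genes). By interval of the plain ratio, 4 lay above 1 and 3 below it (12.2% and 11.3% of all genes). Pou5f1 was at 740 RPKM in the Set1a siRNA library and 745 RPKM in the control siRNA library, a ratio of 0.994 (0.960 to 1.03). Nanog was at 281 RPKM in the Set1a siRNA library and 272 RPKM in the control siRNA library, a ratio of 1.03 (0.988 to 1.08). Sox2 was at 248 RPKM in the Set1a siRNA library and 283 RPKM in the control siRNA library. Its ratio was 0.875 (0.835 to 0.917), below 1 beyond counting error.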

How the data were processed

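RNA-seq libraries of CGR8 cells, 1 per group, were grouped by their transfection label. The deposited tables list 28430 RefSeq transcripts with 1 value each and no header. Their unit was taken to be RPKM because, for low transcripts, the deposited values times transcript length move in steps of 1 read. At 1 to 5 reads, 74.2% of transcripts in the Set1a siRNA library and 74.9% in the control siRNA library were whole to within 0.1 read (20% at random). Build mm9, SAMtools 0.1.16, TopHat2 2.0.12, TopHat and CASAVA are named in the submitters' processing notes. Not given in the sources used here are the read counter, its use of strand and how it treated multiply matching reads.

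Symbols came from RefSeq on GRCm38.p6 and GENCODE M21, which also gave lengths and GC content, and 27957 transcripts (98.3%) received a symbol. Read numbers are approximate, since these lengths may differ from the authors'. A gene was represented by its transcript with the highest summed RPKM. Folds used 1 RPKM added to each value, which makes changes of low genes look smaller, and genes had to average at least 1 RPKM. With 1 library per group, genes were counted by a 1.5-fold rule and by exact Clopper-Pearson intervals, and no p-value was computed. Reads from PCR copies are not independent molecules, so intervals cover counting error only. The calculation was tested on simulated counts.

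The members, the 6 companion lists (other collagen IV and laminin chains, other basement membrane components, collagen processing, receptors, proteases and interstitial matrix), the 3 marker lists (endoderm, fibroblast and pluripotency) and the settings were chosen with earlier results of these data known. The lists overlap in part. An item of these lists is not reported here. Named genes were the members, Setd1a, the other collagen IV and laminin chains, up to 4 genes a list with the largest fold and an interval excluding 1, and defining markers. Python 3.11.15, NumPy 2.4.6, pandas 2.3.3, SciPy 1.17.1 and Matplotlib 3.10.9 were used.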

Additional observations from a re-analysis of the deposited data

How the results depend on the processing

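No paired analysis was possible because there was 1 library a group. Of the 2 members at least 1.5-fold higher, both stayed past it except in these settings: 0 were left with 5 RPKM added and under a 2-fold rule, and 1 was left with a floor of 5 RPKM, which removes Col4a2, with the GC and length trend removed, and without Col4a1 or without Col4a2. The summed read ratio of the members, 0.990, was 0.960 with that trend removed and 1.02 without Lamc1 or without Nid1, so its side of 1 rests on single members. Over all genes, 327 passed 1.5-fold upwards and 206 downwards; these numbers were 643 and 403 with 0.1 RPKM added, 88 and 50 with 5 RPKM added, 118 and 69 with a floor of 5 RPKM, and 91 and 48 under the 2-fold rule. Of 89 recomputed member folds, 88 moved by less than counting error, and the exception was Col4a1 with 5 RPKM added (0.52). Col4a2 fell to 0.35 there, within its wider interval. Many of the 89 could not move: a change of floor leaves a fold as it is, and so does the choice of transcript where a gene has 1. The number 88 is thus no measure of stability. Col4a1 was higher in each of the recomputed settings, and Col4a2 in each that kept it, which the floor of 5 RPKM did not. Lama5 (-0.07) and Nid2 (-0.05) turned below 0 with the trend removed, and Nid2 (-0.0019) also under median-of-ratios scaling. Removing the trend left Hspg2 at 0.01 and 3 members with an interval above 1. Other scalings moved log2 ratios by -0.0069 (median of ratios) and 0.0030 (without the 50 most abundant genes). The median log2 fold of the interstitial matrix list turned to -0.25 with a floor of 5 RPKM, which fewer genes pass, and Lamb2, the other chain measured, turned to -0.02 with the trend removed. With lengths 10% shorter, an alternative chosen after seeing the data, as was the background at 257 reads, 4 members had an interval above 1. That setting cannot change a fold, so little is learned from it. Beyond what each setting does by construction, causes were not tested. Depth limits Col4a2 most among the members, and most endoderm and fibroblast markers more.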
